A study of Mus musculus with 10 samples.

Results

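Sterol and fatty acid synthesis was examined through 30 genes: 7 of the mevalonate steps, 11 of the steps from squalene to cholesterol, 4 of sterol sensing and transport, and 8 of fatty acid synthesis and desaturation. They were taken by symbol, through the Ensembl identifiers of GRCm38, from the 55421 genes of the raw count table, and all 30 were measured in every group. The groups were myeloid-derived suppressor cells (MDSC), which are GR-1+ spleen cells, and macrophages sorted from the tumor (TAM, tumor-associated macrophages), of mice 8 to 12 weeks old that carried MC17-51 fibrosarcoma and were killed on day 15. Shp2f/f mice carry floxed Ptpn11, the gene of the phosphatase SHP-2, and no Cre. Shp2f/fLysMcre mice carry the same floxed alleles with Cre expressed from the Lyz2 locus in myeloid cells, so the deletion and the presence of Cre cannot be told apart. There were 2 MDSC and 3 TAM libraries of Shp2f/f mice, and as many of Shp2f/fLysMcre mice. Per the study's methods TAM were sorted from the same mice that gave MDSC, but which libraries share a mouse, and whether mice were pooled, is not given in the sources used here. P-values therefore measure only the spread between these libraries, and the tests that span both cell types treat them as independent.

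The mevalonate pathway builds isoprenoid units from acetyl-CoA, and a further series of enzymes joins them into squalene, closes the sterol ring as lanosterol and trims it to cholesterol. Fatty acid synthesis also starts from acetyl-CoA, which ATP citrate lyase and acetyl-CoA carboxylase supply and activate for fatty acid synthase, after which elongases and desaturases lengthen the chain and introduce double bonds. Both routes are controlled by the membrane-bound factors SREBP1 and SREBP2, which INSIG proteins hold in the endoplasmic reticulum when sterols are plentiful. In macrophages, sterol surplus also activates the LXR receptors, which induce cholesterol efflux genes and Srebf1.

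Total counts ran from 33262119 to 36541823 in MDSC and from 28844660 to 38222998 in TAM. Values per library are CPM, counts divided by the library's size after TMM scaling within a cell type and brought to a common total. Ptpn11 was lower in Shp2f/fLysMcre TAM, at 50.8 ± 1.75 CPM against 120.2 ± 1.46 (SD, n = 3), a log2 fold change of -1.24 (adjusted p = 2.96e-09), whereas in MDSC it was 91.3 ± 12.2 against 111.5 ± 10.4 CPM (SD, n = 2; log2 -0.29, adjusted p = 0.361). Marker values are CPM on total counts. The TAM libraries carried macrophage markers at 9738 to 13646 CPM in sum and neutrophil markers at 306 to 468 CPM. The MDSC libraries held neutrophil markers with monocyte, macrophage and B cell transcripts, and Ly6g itself reached only 9.20 to 34.1 CPM. Pancreatic islet transcripts summed to 846 to 6687 CPM in Shp2f/f TAM against 5.75 to 73.9 in Shp2f/fLysMcre TAM, and Shp2f/fLysMcre MDSC library 2 had fibroblast transcripts at 655 CPM against at most 26.1 in the other MDSC libraries. Keratinocyte transcripts summed to 45.0 CPM in that library and to 86.8 CPM in Shp2f/fLysMcre TAM library 3, against at most 1.22 CPM in any other. Sex-linked transcripts also differed with genotype. The Shp2f/fLysMcre groups of MDSC and of TAM had more Xist, and of 4 Y-linked genes 4 were called lower in TAM and 3 in MDSC. One of them, Eif2s3y, had 71.1 to 72.9 CPM in Shp2f/f and 21.8 to 24.5 CPM in Shp2f/fLysMcre TAM, and 89.6 to 90.4 against 32.5 to 38.3 CPM in MDSC, so sex and genotype cannot be told apart for any gene below. Every Shp2f/fLysMcre library thus held Y-linked transcripts beside Xist, which was at 130 to 350 CPM in them. The paper reports that both sexes were used in equal numbers. Whether a library holds RNA of several mice was not tested. Adipocyte markers, which would come with fat tissue, summed to at most 0.465 CPM in any library, with Lep at 0 in all of them.

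The stretches before the start sites of 4 members are shown because each holds a CCAAT box, with 1 gene from each of the 4 groups. RefSeq promoters (GRCm38.p6) were listed for 23 of the 30 genes and were searched on both strands in the 250 bases upstream of the start. A CCAAT box, written CCAAT or ATTGG on the other strand, stood in 18 of 23 members (78.3%) and in 37.5% of all 27025 genes in the table. It was present in 5 of 6 mevalonate genes, 9 of 9 genes from squalene to cholesterol and 3 of 3 sensing genes, but in 1 of 5 fatty acid genes, Fasn. The sterol regulatory element TCACNCCAC was found in 1 member, Hmgcs1 (4.35% of members against 1.22% of genes). The E-box CACGTG stood in 4 members (17.4% against 6.86%) and the GC box GGGCGG in 19 (82.6% against 35.4%). A match of letters is not a bound site. In the lines below, capitals mark the CCAAT box, the sterol regulatory element of Hmgcs1 and the E-box of Insig1; in Fasn 2 CCAAT boxes on opposite strands overlap.
Hmgcs1, chr13:119690151-119690350, plus strand: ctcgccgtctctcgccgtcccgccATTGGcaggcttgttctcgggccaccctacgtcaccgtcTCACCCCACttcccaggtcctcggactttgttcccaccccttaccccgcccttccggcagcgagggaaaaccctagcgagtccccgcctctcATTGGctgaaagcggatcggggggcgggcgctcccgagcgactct
Insig1, chr5:28071172-28071351, plus strand: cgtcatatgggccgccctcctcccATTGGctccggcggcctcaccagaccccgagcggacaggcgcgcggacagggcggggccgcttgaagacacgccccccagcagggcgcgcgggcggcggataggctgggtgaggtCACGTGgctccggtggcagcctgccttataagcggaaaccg
Lss, chr10:76531505-76531584, plus strand: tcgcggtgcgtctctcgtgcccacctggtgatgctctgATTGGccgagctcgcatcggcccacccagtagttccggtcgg
Fasn, chr11:120824548-120824667, minus strand: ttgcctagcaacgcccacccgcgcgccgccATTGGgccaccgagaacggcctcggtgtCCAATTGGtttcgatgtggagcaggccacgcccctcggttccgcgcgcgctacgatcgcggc

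In TAM, the Shp2f/fLysMcre genotype went with a mixed pattern across the 30 genes. All 4 genes of sterol sensing and transport, several mevalonate and late cholesterol enzymes and the desaturases Fads1 and Scd2 rose by 9.53% to 49.8%, whereas fatty acid synthase, Acly, Acaca, Elovl6 and lanosterol synthase fell. By edgeR's quasi-likelihood test with Benjamini-Hochberg adjustment over all 14446 genes tested, 19 of 30 members were called at an adjusted p under 0.05, 14 higher and 5 lower. The same test called 50.2% of all genes (23.9% higher and 26.3% lower), so a called member is close to the ordinary case in these libraries. The median log2 fold change of the 30 was 0.13, against -0.01 over all genes. With total-count scaling, which moved the median of all genes to -0.11, the split was 9 higher and 7 lower. The share of all genes called under that scaling was not counted. Of the 19 calls, 10 held in every alternative tried (Pmvk, Tm7sf2, Msmo1, Sc5d, Srebf1, Insig1, Stard4, Fasn, Scd2 and Fads1). In bulk libraries, fewer cells of a type and less RNA per cell cannot be told apart.

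**Figure D1:**
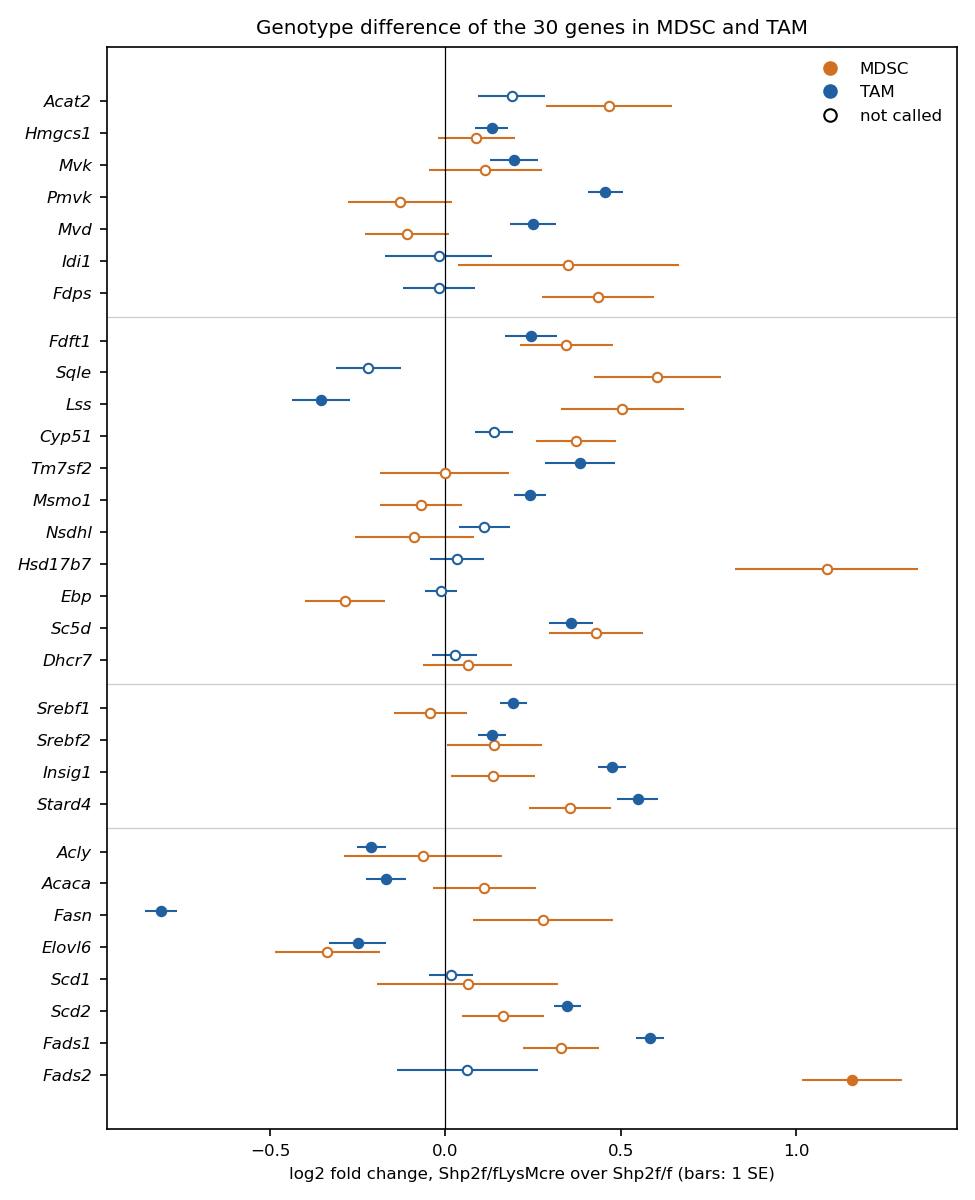
Log2 fold change of Shp2f/fLysMcre over Shp2f/f for each of the 30 genes, in MDSC (orange, 2 against 2 libraries) and TAM (blue, 3 against 3), grouped from top to bottom as mevalonate steps, squalene to cholesterol, SREBP and sensing genes, and fatty acid genes. Bars are 1 SE, filled points have an adjusted p under 0.05, and Fasn in TAM (-0.81) and Fads2 in MDSC (1.16) lie farthest from 0 among them.

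Among the mevalonate genes 4 of 7 were higher in Shp2f/fLysMcre TAM and none was lower (by DESeq2, 3 were called). Of all genes 23.9% were called higher and 26.3% lower by edgeR. Pmvk, which phosphorylates mevalonate phosphate, had 26.8, 26.8 and 29.1 CPM in the Shp2f/f libraries and 39.0, 37.5 and 36.8 CPM in the Shp2f/fLysMcre libraries. Every deleted library lay above every control, with a log2 fold change of 0.45 (SE 0.0497, adjusted p = 1.96e-05). Mvd, the decarboxylase that follows, went from 11.2 ± 0.106 to 13.3 ± 0.839 CPM (log2 0.25, adjusted p = 0.00789), although not with total-count scaling (adjusted p = 0.0616). Smaller increases were called for Hmgcs1, which makes HMG-CoA (log2 0.13, adjusted p = 0.0363), and Mvk, mevalonate kinase (log2 0.20, adjusted p = 0.0335). Leaving out any one of the controls 1 and 2 or the deleted library 2 took both of these past the threshold, to an adjusted p between 0.0516 and 0.138, and so did leaving out control 3 or deleted library 3 for Hmgcs1 and deleted library 1 for Mvk (adjusted p 0.0713 to 0.101). Neither was called with total-count scaling (log2 0.03 for Hmgcs1 and 0.10 for Mvk, adjusted p = 0.593 and 0.233) or with no filter (adjusted p = 0.103 and 0.0937), and DESeq2 did not call Mvk (adjusted p = 0.095). The thiolase Acat2 (log2 0.19, adjusted p = 0.123), the isomerase Idi1 (log2 -0.02, adjusted p = 0.927) and farnesyl diphosphate synthase Fdps (log2 -0.02, adjusted p = 0.903) were not called. These 3 share sequence with near-identical copies or overlapping genes: 40.8% of Acat2's, 26.0% of Idi1's and 27.1% of Fdps's annotated words of 42 bases, the read length, occur in transcripts of other genes, so their counts are uncertain.

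From squalene to cholesterol, 4 of 11 genes were higher in Shp2f/fLysMcre TAM, 1 was lower and 6 were not called. The share called was 45.5%, below the 50.2% of all genes. Lss, lanosterol synthase, which closes the sterol ring, was the one that fell: it had 10.5, 10.9 and 12.6 CPM in controls and 9.23, 8.91 and 8.40 CPM in deleted TAM. The groups did not overlap, and the log2 fold change was -0.36 (SE 0.0836, adjusted p = 0.00438). The call held when any 1 library was left out (adjusted p at most 0.0191) and was lost without both libraries numbered 3 (log2 -0.24, adjusted p = 0.0513), an alternative chosen after seeing that control library 3 held the most islet and deleted library 3 the most keratinocyte transcripts. Squalene epoxidase, Sqle, which acts just before it, had 19.4, 22.2 and 25.9 CPM in controls and 20.3, 19.5 and 18.1 CPM in deleted TAM. These groups overlapped (log2 -0.22, adjusted p = 0.0682), and Sqle passed the threshold only when control library 1 was left out (log2 -0.32, adjusted p = 0.00562), with total-count scaling (log2 -0.32) or with no filter on low counts (log2 -0.23).

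The 4 genes that rose were Sc5d, Msmo1, Tm7sf2 and Fdft1. Sc5d, the sterol C5-desaturase, had 9.98, 10.3 and 9.99 CPM in controls and 13.4, 12.6 and 12.8 CPM in deleted TAM (log2 0.36, adjusted p = 0.000567). Msmo1, the C4-methylsterol oxidase, went from 35.0 ± 1.21 to 41.4 ± 0.920 CPM (log2 0.24, adjusted p = 0.00102), and Tm7sf2, a sterol C14-reductase, from 4.87 ± 0.480 to 6.36 ± 0.255 CPM (log2 0.38, adjusted p = 0.00777). In each of the 3 the groups stood apart. Of Tm7sf2's words of 42 bases 10.2% are annotated in Vps51 on the same strand. Vps51 averaged 43.4 CPM in TAM, with a log2 fold change of 0.07. Fdft1, squalene synthase, was called higher as well (10.5 ± 0.915 to 12.5 ± 0.238 CPM, adjusted p = 0.0166), but it lost the call without control library 1 or 2 or deleted library 2 (adjusted p 0.0535 to 0.0662) and with total-count scaling (adjusted p = 0.121). Its count also sits beside a much larger one: 17.4% of its words of 42 bases are annotated in Ctsb on the opposite strand, which averaged 8026 CPM in TAM and rose by 0.67 on the log2 scale, and the sources do not state whether counting used the strand.

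The other 5 genes of these steps were not called either. Cyp51, lanosterol demethylase, had a log2 fold change of 0.14 (adjusted p = 0.0542) and was called when either library numbered 3 was left out. With all libraries kept it was called with DESeq2 size factors (adjusted p = 0.0337) and with the filter of 1 CPM in every library of a group (adjusted p = 0.0403). Nsdhl, Hsd17b7, Ebp and Dhcr7, which act between lanosterol and cholesterol, had log2 fold changes from -0.01 to 0.11 and adjusted p from 0.234 to 0.832; Ebp was called lower with total-count scaling (log2 -0.11, adjusted p = 0.0417). Nsdhl and Ebp are X-linked, and Xist, the X-inactivation transcript, was at 4.84 to 18.5 CPM in control and 192 to 350 CPM in deleted TAM; the part of this in their values was not tested.

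**Figure D2:**
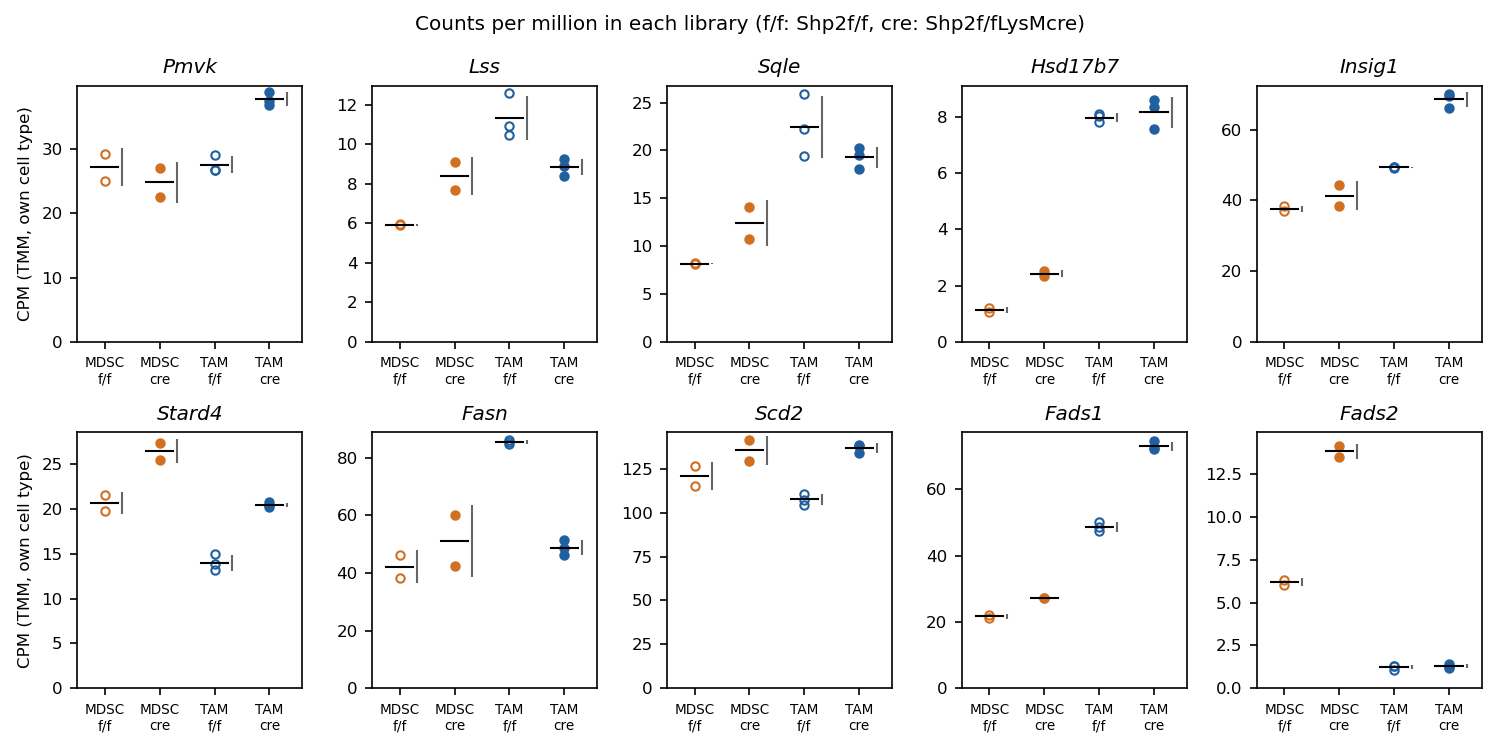
CPM (TMM-scaled within a cell type, vertical axes from 0) of 10 genes in each of the 10 libraries, open points for Shp2f/f (f/f) and filled points for Shp2f/fLysMcre (cre), with the mean as a black line and 1 SD as a grey bar. In TAM, Fasn falls from 84.7 to 86.2 CPM in controls to 46.2 to 51.3, and Fads1 rises from 47.3 to 50.3 to 72.1 to 74.5; Fads2 differs in MDSC and not in TAM.

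All 4 genes of sterol sensing and transport were higher in Shp2f/fLysMcre TAM, where 23.9% of all genes were called higher. Stard4, a carrier that moves cholesterol between membranes, had 14.9, 13.8 and 13.2 CPM in controls and 20.4, 20.2 and 20.7 CPM in deleted TAM (log2 0.55, SE 0.0583, adjusted p = 1.62e-05). Insig1, which retains SREBP in the endoplasmic reticulum and is itself an SREBP target, had 49.5, 49.4 and 49.1 CPM against 66.1, 70.0 and 69.4 CPM (log2 0.47, SE 0.0400, adjusted p = 2.72e-06). In both genes the control libraries differed by little and the deleted libraries all lay above them. The genes of the factors themselves rose less: Srebf1 went from 97.7 ± 3.06 to 111.7 ± 3.05 CPM (log2 0.19, adjusted p = 0.00179) and Srebf2 from 143.7 ± 5.32 to 157.5 ± 1.69 CPM (log2 0.13, adjusted p = 0.0154). The Srebf2 call was lost without control library 3 (adjusted p = 0.071), without deleted library 2 (adjusted p = 0.060) with no filter (adjusted p = 0.0773), in 1 fit of all 10 libraries (adjusted p = 0.0955) and with total-count scaling (log2 0.03).

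The fatty acid genes divided by step in TAM, with 4 of 8 lower, 2 higher and 2 not called. Of all genes 26.3% were called lower and 23.9% higher. Fasn, fatty acid synthase (GRCm38 chr11:120805846-120824547), had 86.2, 85.6 and 84.7 CPM in controls and 46.2, 51.3 and 48.8 CPM in deleted TAM. It was the largest difference of the 30 in TAM, with a log2 fold change of -0.81 (SE 0.0446, adjusted p = 1.31e-07) and no overlap. Acly, ATP citrate lyase, which yields cytosolic acetyl-CoA, had 296, 296 and 305 CPM against 248, 258 and 269 CPM (log2 -0.21, adjusted p = 0.00131; 0.353 in 1 fit of all 10 libraries). Acaca, acetyl-CoA carboxylase, was at 19.7 ± 0.521 and 17.5 ± 0.989 CPM (log2 -0.17, adjusted p = 0.027), and Elovl6, which lengthens palmitate, at 8.72 ± 0.328 and 7.35 ± 0.546 CPM (log2 -0.25, adjusted p = 0.0231). The calls of Acaca and Elovl6 were lost by DESeq2 (adjusted p = 0.138 and 0.119), in 1 fit of all 10 libraries (adjusted p = 0.284 and 0.137) and without control library 2 or 3 or deleted library 2 (adjusted p 0.0532 to 0.116), Acaca's also without deleted library 1 (adjusted p = 0.0726). Of Acaca's annotated words 31.6% recur elsewhere, mostly in Gm5182, which averaged 0.363 CPM.

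The desaturases moved the other way or not at all. Fads1, the delta-5 desaturase of polyunsaturated fatty acids (chr19:10182888-10196877), had 47.3, 50.3 and 48.6 CPM in controls and 74.5, 72.4 and 72.1 CPM in deleted TAM (log2 0.58, SE 0.0406, adjusted p = 6.61e-07). Its neighbour Fads2, the delta-6 desaturase (chr19:10062765-10101746), had only 1.08, 1.32 and 1.29 CPM against 1.27, 1.41 and 1.17 (log2 0.06, adjusted p = 0.822). Likewise Scd2, a stearoyl-CoA desaturase, went from 105, 111 and 107 CPM to 139, 138 and 134 CPM (log2 0.35, adjusted p = 2.08e-05), while its paralog Scd1 stayed at 10.6 ± 0.235 and 10.7 ± 0.240 CPM (log2 0.02, adjusted p = 0.853). In each neighbouring pair 1 desaturase rose and the other was not called. Scd1 shares 4.17% of its words of 42 bases with Scd3, and Scd2 shares 3.35% with Scd1. With any other gene the shares are 5.91% for Scd1 and 5.04% for Scd2.

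Markers of other features moved with genotype in TAM beside these genes. All 18 proliferation genes were lower (1782 to 1803 CPM in sum in controls, 999 to 1058 in deleted TAM), 9 of 10 macrophage markers were higher and 1 lower (9738 to 10031 against 13177 to 13646 CPM), and 8 of 8 T and NK cell markers were lower (11.7 to 13.3 against 4.65 to 5.67 CPM). Endothelial markers were also higher (3 of 3 tested, 71.1 to 74.6 against 104.8 to 110.7 CPM), as were 5 of 9 neutrophil markers (306 to 319 against 442 to 468 CPM), and of 6 monocyte markers 4 were higher and 2 lower (1770 to 1821 against 2095 to 2125 CPM). No marker of these 6 lists was at 0 in either TAM group. Their part in the lipid genes was not tested.

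Wider lists of the pathway were counted in TAM beside the 23.9% of all genes called higher and the 26.3% called lower. Of 14 other sterol synthesis and SREBP genes tested, 2 were higher and 5 lower (median log2 -0.01). The largest called difference was in Tmem97, a sterol-regulated membrane protein (22.2 ± 1.76 to 15.8 ± 1.37 CPM, log2 -0.49, adjusted p = 0.000252). Of 19 other fatty acid synthesis genes tested, 1 was higher and 9 were lower (median log2 -0.17), led among genes of at least 1 CPM by Mid1ip1, an activator of acetyl-CoA carboxylase (68.4 ± 2.89 to 42.6 ± 1.77 CPM, log2 -0.68, adjusted p = 7.41e-07), and Hacd1, an elongation-cycle dehydratase (log2 -0.57, adjusted p = 0.00364). With total-count scaling 12 of these were lower and none higher. That scaling moved the median of all genes to -0.11, and the share of all genes called under it was not counted.

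In the list of LXR targets and of sterol efflux, storage and release genes, 14 of 16 were higher and none was lower (median log2 0.44). Apoe, the lipid-carrying apolipoprotein, rose from 3301 ± 92.3 to 6646 ± 630 CPM (log2 1.01, adjusted p = 1.13e-07) and Plin2, which coats lipid droplets, from 547 ± 5.79 to 962 ± 65.5 CPM (log2 0.81, adjusted p = 1.83e-07). The count was 13 higher and 1 lower with total-count scaling, and 14 higher without both libraries numbered 3. Among 14 fatty acid oxidation genes tested 3 were higher and 4 lower (1 and 8 with total-count scaling). Cpt1a, which admits fatty acids to mitochondria, rose from 93.5 ± 3.11 to 125.2 ± 3.65 CPM (log2 0.42) and Cpt2, its partner on the inner membrane, fell from 17.3 ± 0.557 to 14.5 ± 0.275 CPM (log2 -0.25).

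**Figure D3:**
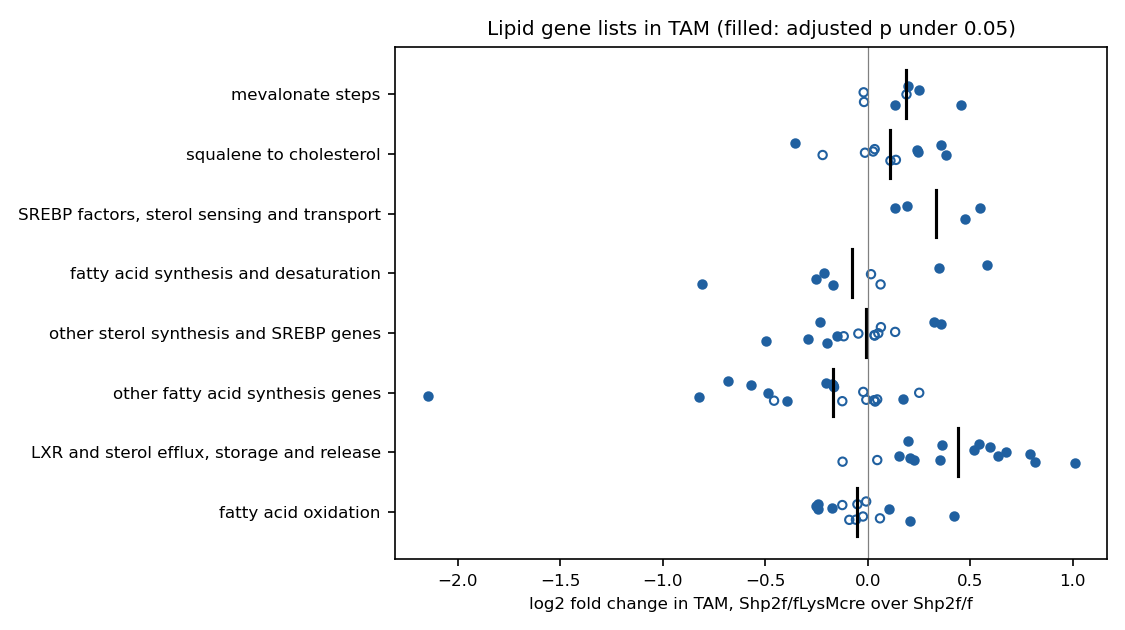
Log2 fold changes in TAM (horizontal axis, Shp2f/fLysMcre over Shp2f/f) of every tested gene in 8 lipid gene lists, 1 row a list, with filled points for an adjusted p under 0.05 and a black bar at the list's median. The efflux and storage list has the highest median (0.44) and the list of other fatty acid synthesis genes the lowest (-0.17); points are spread vertically only for legibility.

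In MDSC, 1 of the 30 genes was called between genotypes. Fads2 had 6.34 and 6.03 CPM in Shp2f/f and 13.5 and 14.1 CPM in Shp2f/fLysMcre libraries (208 and 199 against 473 and 544 counts). Both Shp2f/fLysMcre libraries lay above both controls, with a log2 fold change of 1.16 (SE 0.143, adjusted p = 0.0208). The test called 4.28% of 14806 genes (3.76% higher and 0.52% lower), and 1 of 30 members is a share near that background. Without control library 1 the change was 1.19 (adjusted p = 0.595) and without control library 2 it was 1.12 (adjusted p = 0.673); with no filter it was 1.14 (adjusted p = 0.0587).

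None of the 18 mevalonate and squalene-to-cholesterol genes was called in MDSC by edgeR's quasi-likelihood test or by DESeq2. An unadjusted p under 0.05 was found for 8 of them. The share of all genes under it was not counted, so the 8 cannot be set against a background. The median log2 fold change of the 18 was 0.23, against -0.01 over all genes. Hsd17b7, a 3-ketosteroid reductase, had 1.22 and 1.06 CPM in controls and 2.51 and 2.34 CPM in Shp2f/fLysMcre MDSC (log2 1.09, adjusted p = 0.0943), on 35 to 90 counts a library. Sqle had 8.14 and 8.21 CPM against 14.1 and 10.7 CPM (log2 0.60, adjusted p = 0.156), and Lss had 5.89 and 5.94 CPM against 9.08 and 7.69 CPM (log2 0.50, adjusted p = 0.207). The groups of 2 libraries did not overlap in 16 of the 30 members in MDSC, these 3 included. The share of all genes without overlap was not counted, so no conclusion about the members is drawn from the 16. Acat2, Fdps, Fdft1, Cyp51 and Sc5d had log2 fold changes from 0.34 to 0.47 with adjusted p from 0.164 to 0.244. Hmgcs1, Mvk, Pmvk, Mvd, Idi1, Tm7sf2, Msmo1, Nsdhl and Dhcr7 had overlapping groups (log2 -0.13 to 0.35). Leaving out any 1 library, which leaves 1 in a group, moved these estimates. The log2 fold change ran from 0.37 to 0.79 for Sqle, 0.35 to 0.62 for Lss and 0.99 to 1.19 for Hsd17b7. It ran from 0.30 to 0.59 for Acat2, 0.22 to 0.43 for Fdft1 and 0.31 to 0.43 for Cyp51. For Sc5d it ran from 0.26 to 0.56 and for Ebp from -0.37 to -0.20. In 1 fit of all 10 libraries, which shares 1 estimate of the spread with TAM, Acat2, Fdft1, Sqle, Lss, Cyp51, Hsd17b7, Ebp and Sc5d were called (adjusted p 0.000996 to 0.0496), where that fit called 16.1% of all genes in MDSC. Ebp, at 80.9 and 90.8 CPM against 68.3 and 72.5 CPM, had a log2 fold change of -0.29 (adjusted p = 0.261) and is X-linked; Xist was at 0.0298 to 0.0301 CPM in control and 130.2 to 135.8 CPM in Shp2f/fLysMcre MDSC.

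The sensing genes and the other fatty acid genes were not called in MDSC either. Stard4 had 21.5 and 19.8 CPM against 27.4 and 25.4 CPM (log2 0.36, adjusted p = 0.186) and Fads1 had 21.2 and 22.2 CPM against 27.2 and 27.3 CPM (log2 0.33, adjusted p = 0.184). Both were called in 1 fit of all 10 libraries (adjusted p = 0.0148 and 0.00564). Srebf1, Srebf2, Insig1, Acly, Acaca, Fasn, Scd1 and Scd2 had log2 fold changes from -0.06 to 0.28, and Elovl6 had -0.34 (adjusted p = 0.307). Acly and Fasn turned on 1 library: without Shp2f/fLysMcre library 1 Acly had a log2 fold change of -0.45 and Fasn -0.02, and without Shp2f/fLysMcre library 2 they had 0.22 and 0.51. None of the other sterol, other fatty acid, LXR or oxidation genes was called in MDSC by edgeR. Of these lists 3, 3, 4 and 1 genes had an unadjusted p under 0.05, and DESeq2 called 3, 1, 1 and 0. The shares of all genes at these 2 levels were not counted, so these counts cannot be set against a background.

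Cell markers differed between the MDSC groups beside these values. Neutrophil markers summed to 9827 to 10121 CPM in control and 27770 to 31479 CPM in Shp2f/fLysMcre MDSC (6 of 10 called higher), proliferation genes to 1250 to 1302 and 2443 to 2619 CPM (15 of 18 higher), and erythroid markers to 284 to 307 and 622 to 784 CPM (7 of 9 higher). Monocyte markers summed to 5892 to 6177 in control and 3860 to 4793 CPM in Shp2f/fLysMcre MDSC (0 of 6 called, 4 at an unadjusted p under 0.05, 3 called by DESeq2), and macrophage markers to 2640 to 2742 and 2065 to 2167 CPM (1 of 10 lower). No marker of these lists was at 0. The shares of all genes under the unadjusted p or called by DESeq2 were not counted. Their part in the rise of Fads2 and in the values of the sterol genes was not tested.

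Whether genotype acted differently in the 2 cell types was asked with an interaction term in a fit of the 10 libraries. It was called for 12 of 30 members, 7 higher in TAM and 5 lower, where 24.9% of 16581 genes were called (12.2% higher and 12.7% lower). Ptpn11 itself had a called interaction (-0.92, adjusted p = 0.00045), with a log2 fold change of -1.24 in TAM and -0.29 in MDSC, where it was not called. The part of this unequal loss of the target in the members' interactions was not tested. Fasn (-1.06, adjusted p = 0.00252), Lss (-0.83, adjusted p = 0.00482) and Fads2 (-1.07, adjusted p = 0.00469) were called in every alternative. Lss was the only sterol gene of these 3, with a log2 fold change of -0.36 in TAM and 0.50 in MDSC. Sqle (-0.79, adjusted p = 0.0164) and Hsd17b7 (-1.02, adjusted p = 0.00271) were also lower in TAM relative to MDSC, but neither was called with weights that let the spread differ between cell types (voom, adjusted p = 0.118 and 0.0781). That fit called 5 members where it called 16.9% of genes. The 7 members higher in TAM relative to MDSC were Pmvk (0.61, adjusted p = 0.010), Mvd (0.39), Msmo1 (0.34), Ebp (0.30), Srebf1 (0.27), Insig1 (0.37) and Fads1 (0.28); with total-count scaling, which moved the median of all genes to -0.18, none of the 7 was called and the split was 0 higher and 8 lower. Of these 7 Pmvk was called with any library left out (adjusted p at most 0.0409). Insig1, like Sqle, lost its call without MDSC control 1 or 2 (adjusted p 0.0553 to 0.086). The other 5 lost theirs without MDSC control 2 (adjusted p 0.102 to 0.156) and without TAM control 1 or deleted TAM library 1 or 2 (adjusted p 0.0545 to 0.103). Of the LXR and efflux list 10 of 16 had a called interaction, none of them lower in TAM. With total-count scaling the share of all genes with a called interaction was not counted.

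Control TAM and control MDSC differed in most of the 30 genes: 23 were called, 12 higher and 11 lower in TAM, where 69.6% of genes were called (35.1% higher and 34.6% lower). Tissue, sorting method and cell type cannot be told apart here. Hsd17b7 was the farthest above, at 1.09 ± 0.107 CPM in MDSC and 8.13 ± 0.167 in TAM (log2 2.90, adjusted p = 4.26e-08; CPM on 1 scale for all 10 libraries). Sqle (7.79 ± 0.0480 and 22.9 ± 3.26 CPM, log2 1.55) and Lss (5.63 ± 0.0369 and 11.5 ± 1.11 CPM, log2 1.03), which act in sequence, were higher in TAM too, as were Fads1 (log2 1.26), Fasn (log2 1.11) and Scd1 (log2 0.96). Fads2 stood farthest below, at 5.89 ± 0.210 CPM in MDSC and 1.25 ± 0.139 in TAM (log2 -2.23, adjusted p = 4.35e-07). Mvd (44.1 ± 3.49 and 11.4 ± 0.191 CPM, log2 -1.95), Sc5d (log2 -1.25), Tm7sf2 (log2 -1.20), Elovl6 (log2 -1.13), Ebp (log2 -0.86) and Fdft1 (log2 -0.74) were lower in TAM. Enzymes of 1 pathway were thus found on both sides. The other called members lay between -0.52 and 0.49, and Srebf1 (-0.15, adjusted p = 0.0297) lost its call without any 1 of the controls MDSC 1, MDSC 2, TAM 1 or TAM 3 (adjusted p 0.060 to 0.141). Fdps (-0.40, adjusted p = 0.0526) and Nsdhl (0.39, adjusted p = 0.0918) lost theirs without MDSC control 2, and Mvk (0.37, adjusted p = 0.0559) without MDSC control 1.

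Per kilobase of annotated exon, the order of levels in the controls was led by Acly in both cell types, at 57.6 ± 0.758 CPM per kb in TAM and 49.0 ± 1.69 in MDSC. In TAM Srebf2, Scd2 and Ebp followed at 20.4 ± 0.862, 20.1 ± 0.717 and 19.5 ± 0.342 CPM per kb, levels that do not differ beyond their spread. In MDSC Ebp was second at 35.4 ± 2.90 and Mvd next at 23.7 ± 1.88 CPM per kb, whereas Mvd was 13th in TAM at 6.14 ± 0.103. The lowest levels were those of Fads2 (0.380 ± 0.0421) and Idi1 (0.741 ± 0.0979) in TAM and of Hsd17b7 (0.213 ± 0.021) and Lss (0.522 ± 0.00342) in MDSC. Lengths are the union of all annotated exons, 10787 bases for Lss, so a gene with retained introns in the annotation reads low.

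**Figure D4:**
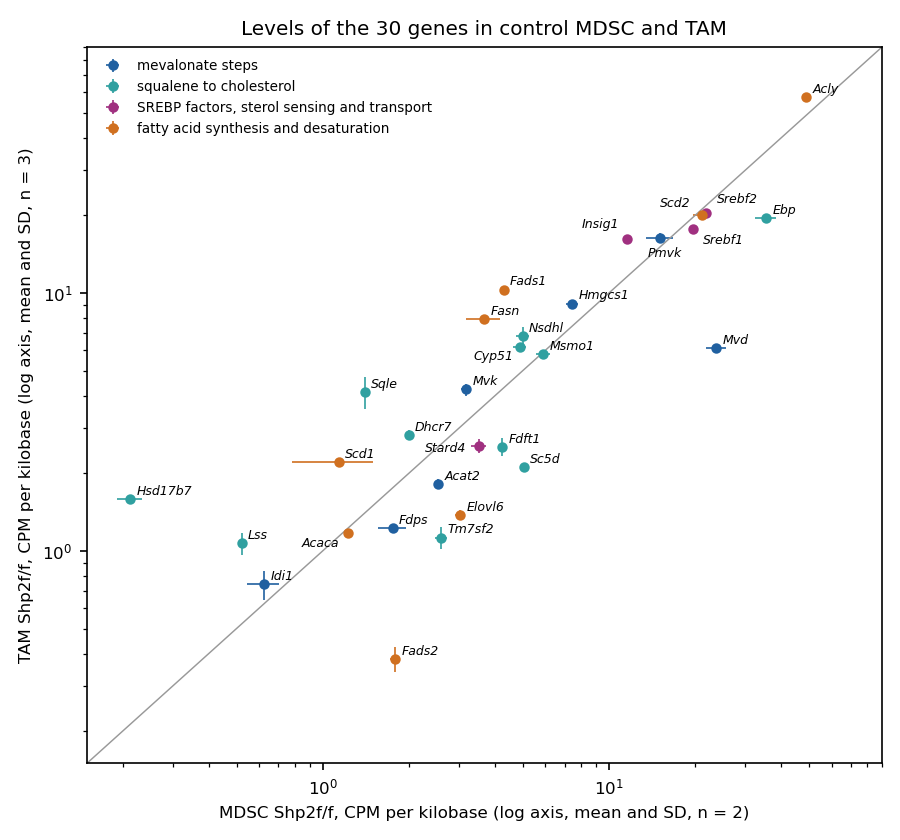
Level of each of the 30 genes in control MDSC (horizontal) and control TAM (vertical), in CPM per kilobase of exon on log axes, as mean and SD of 2 and 3 Shp2f/f libraries, coloured by step. Points above the grey line are higher in TAM: Hsd17b7, Sqle and Lss lie above it and Fads2, Mvd and Sc5d below.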

How the data were processed

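RNA-seq of 10 libraries was analysed from the raw count table. Per the labels and the study's methods, the authors made polyA-selected stranded libraries from 400 ng RNA, sequenced 42-base read pairs, and ran FastQC 0.11.5, Cutadapt 2.5, STAR 2.7.3a on GRCm38 and featureCounts (Subread 1.6.2) on Ensembl genes. The strand and multimapping settings are not given in the sources used here, and the authors' normalized table and DESeq2 1.24.0 output were not used. The deposited values are raw counts per gene. Gene names, coordinates and exon lengths came from GENCODE M21 (99.7% of identifiers matched).

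Groups came from sample titles. edgeR 4.0.16 (R 4.3.3) fitted TMM-scaled counts of genes kept by filterByExpr (minimum count 10), within a cell type for genotype and over all 10 libraries otherwise. Alternatives were DESeq2 1.42.0, its size factors, total counts, no filter, a filter of 1 CPM in every library of a group, a replicate block, 1 fit of all libraries, limma 3.58.1 voom weights, and leaving out each library. Scripts were tested on simulated data. The 30 members and the gene lists were chosen with earlier results of these data known. All members are named, and of each other list the 2 largest called changes at a mean of 1 CPM or more, except 1 that is not reported here. P-values are two-sided.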

Additional observations from a re-analysis of the deposited data

Results flagged for a closer look

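The effect of genotype differed between TAM and MDSC by the interaction test in 12 genes, given here as the log2 fold change in TAM minus that in MDSC. It was negative in Fads2 (-1.07), Fasn (-1.06), Hsd17b7 (-1.02), Lss (-0.83) and Sqle (-0.79). It was positive in Pmvk (0.61), Mvd (0.39), Insig1 (0.37), Msmo1 (0.34), Ebp (0.30), Fads1 (0.28) and Srebf1 (0.27). This test called 24.9% of all genes. The MDSC libraries varied more than the TAM libraries, and with weights per cell type 5 of these differences were called, beside 16.9% of all genes. Groups of 2 or 3 libraries were too small to test for a library that stands apart. Ptpn11 itself was called by the same interaction test (-0.92, adjusted p = 0.00045), and its part in the 12 differences was not tested.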

How the results depend on the processing

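In TAM the count of called members stayed within 13 to 20 under every alternative (19 as reported), and in control TAM against control MDSC within 20 to 24 (23 as reported). In MDSC, where 1 member was called, it was 0 at an adjusted p under 0.01, 0 with no filter, 8 with the replicate block and 11 in 1 fit of all 10 libraries (which called 16.1% of genes in MDSC), and 0 to 8 when a library was left out. With 2 libraries a group, the lone library left was assumed to vary like the others. The interaction, 12 as reported, gave 4 at an adjusted p under 0.01, 7 with no filter, 5 with voom weights per cell type, and 5 to 14 when a library was left out. The cause of these shifts was not tested. For the interaction 24.9% of all genes were called as reported and 16.9% with voom weights. Among the other alternatives, shares of all genes were counted only for the replicate block and the 1 fit of all 10 libraries.

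Replicate numbers gave deviations that correlated by 0.36 in each of 2 MDSC pairs, by -0.16 to 0.05 in the TAM pairs and by -0.12 to 0.05 across cell types, so they were not treated as pairs. The replicate block called 18.1% of genes in MDSC and 47.8% in TAM, with 8 (Fads2, Fdft1, Sqle, Cyp51, Hsd17b7, Sc5d, Stard4 and Fads1) and 17 members (without Hmgcs1 and Mvk). It called 12 members and 31.5% of genes in the interaction, and 22 members and 66.7% of genes between cell types.

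Changes of sign occurred in members not called. In MDSC Tm7sf2 (-0.0021) went to 0.052 with total counts, 0.019 with the stricter filter and 0.0062 in 1 fit, and Srebf1 to 0.0017 with total counts. In TAM total counts gave -0.064 for Hsd17b7, -0.072 for Dhcr7, -0.082 for Scd1 and -0.035 for Fads2. One fit of all libraries gave 0.015 for Idi1, 0.016 for Fdps and 0.022 for Ebp. Leaving out both TAM libraries numbered 3, an alternative chosen after seeing the data, gave 0.026 for Fdps and 0.030 for Ebp. When a library was left out, log2 fold changes in MDSC ran from -0.013 to 0.20 for Mvk, -0.065 to 0.66 for Idi1, -0.24 to 0.17 for Tm7sf2, -0.18 to 0.0072 for Msmo1, -0.32 to 0.092 for Nsdhl, -0.029 to 0.27 for Srebf2, -0.45 to 0.22 for Acly, -0.092 to 0.27 for Acaca, -0.021 to 0.51 for Fasn and -0.23 to 0.42 for Scd1. In TAM they ran from -0.11 to 0.073 for Idi1, -0.095 to 0.047 for Fdps, -0.0033 to 0.090 for Hsd17b7, -0.038 to 0.017 for Ebp, -0.015 to 0.081 for Dhcr7 and -0.027 to 0.13 for Fads2.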
